A study of Mus musculus with 18 samples.

Results

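The 10 genes described here are 4 ligands of the vascular endothelial growth factor family (Vegfa, Vegfb, Vegfc and Vegfd), their 3 receptor genes Kdr, Flt1 and Flt4, the angiopoietin receptor gene Tek, its partner Tie1, and Cdh5, which encodes the cadherin of endothelial junctions. They were taken by symbol from the expression tables, where Vegfd is written Figf. Each was listed in all 3 tables, among 14686 genes listed in at least 1 table and 12677 listed in all 3.

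The RNA came from limb buds of mouse embryos, in 6 groups of 3 sequenced libraries. One table holds CD1 hindlimb at e11.0 and CD1 forelimb at e10.5, both wild type and, per the series' design text, matched by morphology. The second holds Pitx1 null and wild type hindlimb at e11.0, and the third Pitx1 null and wild type hindlimb at e11.5, all with BALB/c as the labelled strain. Library preparation differed by stage: ribosomal RNA was depleted at e10.5 and e11.0, whereas mRNA was enriched at e11.5. Replicates 1 and 2 of each group share 1 sequencing run, while replicate 3 of the Pitx1 groups is of another run at each stage, with unstranded libraries at e11.5. For the CD1 groups the run of replicate 3 is not labelled. The labels do not say how many embryos went into a library or whether replicates came from separate litters. The p-values therefore measure the spread between these libraries, which may be technical.

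Vegfa is secreted by many tissues, with oxygen shortage as a known inducer, and binds Kdr, the main signalling receptor of growing vessels, and Flt1, which can act as a decoy. Vegfc and Vegfd bind Flt4, the receptor of lymphatic and of sprouting endothelium, and Vegfc binds Kdr as well, which in mouse Vegfd does not. Vegfb binds Flt1. Tek and Tie1 are receptor kinases of the angiopoietin system, which steadies vessels, and Cdh5 holds endothelial cells together, so that in a limb bud the receptors and Cdh5 are read mainly from endothelial cells and the ligands from other cells too. Limb buds are vascularized as they grow out, and a whole-bud library mixes all of these cells. In such bulk samples, fewer endothelial cells and less RNA per endothelial cell cannot be told apart.

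Shown are the promoters of Vegfd, the ligand that differed most, and of Kdr, Flt1 and Tie1, receptors called lower in null hindlimb at e11.0. Tek, also called lower there, is not shown. Each window is the 250 bases before the RefSeq start on the gene's strand (GRCm38.p6). Capitals mark AGGAAG, a form of the motif bound by endothelial Ets factors, and the Gata motif AGATAA, each searched on both strands. Other and shorter forms of the Ets motif were not searched and are not marked. The windows lie at chrX:164373272-164373521 (plus strand) for Vegfd, chr5:75978456-75978705 (minus strand) for Kdr, chr5:147726012-147726261 (minus strand) for Flt1 and chr4:118489850-118490099 (minus strand) for Tie1. In the GENCODE M21 annotation of GRCm38, Vegfd spans 164373378 to 164402650 on chromosome X, Kdr 75932827 to 75978458 and Flt1 147561604 to 147726011 on chromosome 5, and Tie1 118471191 to 118490061 on chromosome 4.
Vegfd: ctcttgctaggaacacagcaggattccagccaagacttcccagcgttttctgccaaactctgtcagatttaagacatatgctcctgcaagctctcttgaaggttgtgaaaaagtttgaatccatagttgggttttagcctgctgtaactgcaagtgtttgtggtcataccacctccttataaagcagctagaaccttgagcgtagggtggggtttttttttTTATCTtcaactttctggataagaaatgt
Kdr: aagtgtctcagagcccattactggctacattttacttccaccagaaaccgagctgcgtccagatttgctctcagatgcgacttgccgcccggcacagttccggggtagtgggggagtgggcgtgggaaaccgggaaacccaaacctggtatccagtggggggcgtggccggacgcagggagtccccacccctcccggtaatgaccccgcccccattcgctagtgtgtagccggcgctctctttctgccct
Flt1: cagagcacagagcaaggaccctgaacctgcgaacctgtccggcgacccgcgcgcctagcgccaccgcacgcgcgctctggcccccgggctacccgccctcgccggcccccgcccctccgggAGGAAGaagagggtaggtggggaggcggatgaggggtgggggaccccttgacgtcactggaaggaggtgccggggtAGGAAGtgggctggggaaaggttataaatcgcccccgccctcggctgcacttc
Tie1: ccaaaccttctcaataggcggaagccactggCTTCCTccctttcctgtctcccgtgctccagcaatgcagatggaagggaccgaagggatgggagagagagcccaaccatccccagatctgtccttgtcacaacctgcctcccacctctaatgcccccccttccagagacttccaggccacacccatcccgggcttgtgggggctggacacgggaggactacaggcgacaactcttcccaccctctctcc
The letters AGGAAG were found in the windows of 2 of the 5 receptor genes, Flt1 and Tie1, and 29.5% of 32851 mouse promoters of the same length hold them. The Vegfd window had a Gata match on the reverse strand, 29 bases before the RefSeq start, a motif held by 9.99% of promoters. The Vegfd window runs past the GENCODE start of the gene, and this match lies inside the gene as GENCODE gives it. Most of the Tie1 window lies inside its GENCODE gene too. TAATCC, a motif bound by Pitx factors and held by 6.25% of promoters, was not among the letters of any window of the 9 genes with an entry. A promoter entry was matched for Vegfa, Vegfb, Vegfc, Vegfd, Kdr, Flt1, Flt4, Tek and Tie1, and Cdh5 was not matched.

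The labels held for the gene that names the study. Pitx1, the hindlimb transcription factor, had 183 to 223 CPM (counts scaled to library size) in CD1 hindlimb, against 0.266 to 0.462 CPM in CD1 forelimb. In Pitx1 null hindlimb it had 19.3 to 22.9 CPM at e11.0, against 114 to 136 CPM in wild type. At e11.5 it had 72.1 to 88.6 CPM in null hindlimb, against 319 to 364 CPM in wild type, and the deleted stretch of Pitx1 is not stated in the labels. Endothelial RNA was present in each group: 29 of 30 endothelial surface and junction markers were listed in each table, and none of these 29 was at 0 in any library. The 18 libraries held between 17400000 and 53600000 reads on listed genes, as the CPM steps imply: in each library 100% of the values came within 0.01 of a whole read, but a separate check on low values recovered whole reads in some libraries only, so implied reads are approximate. Vegfd reached the lowest implied count of the 10 genes, with 55 to 692 reads a library.

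**Figure D1:**
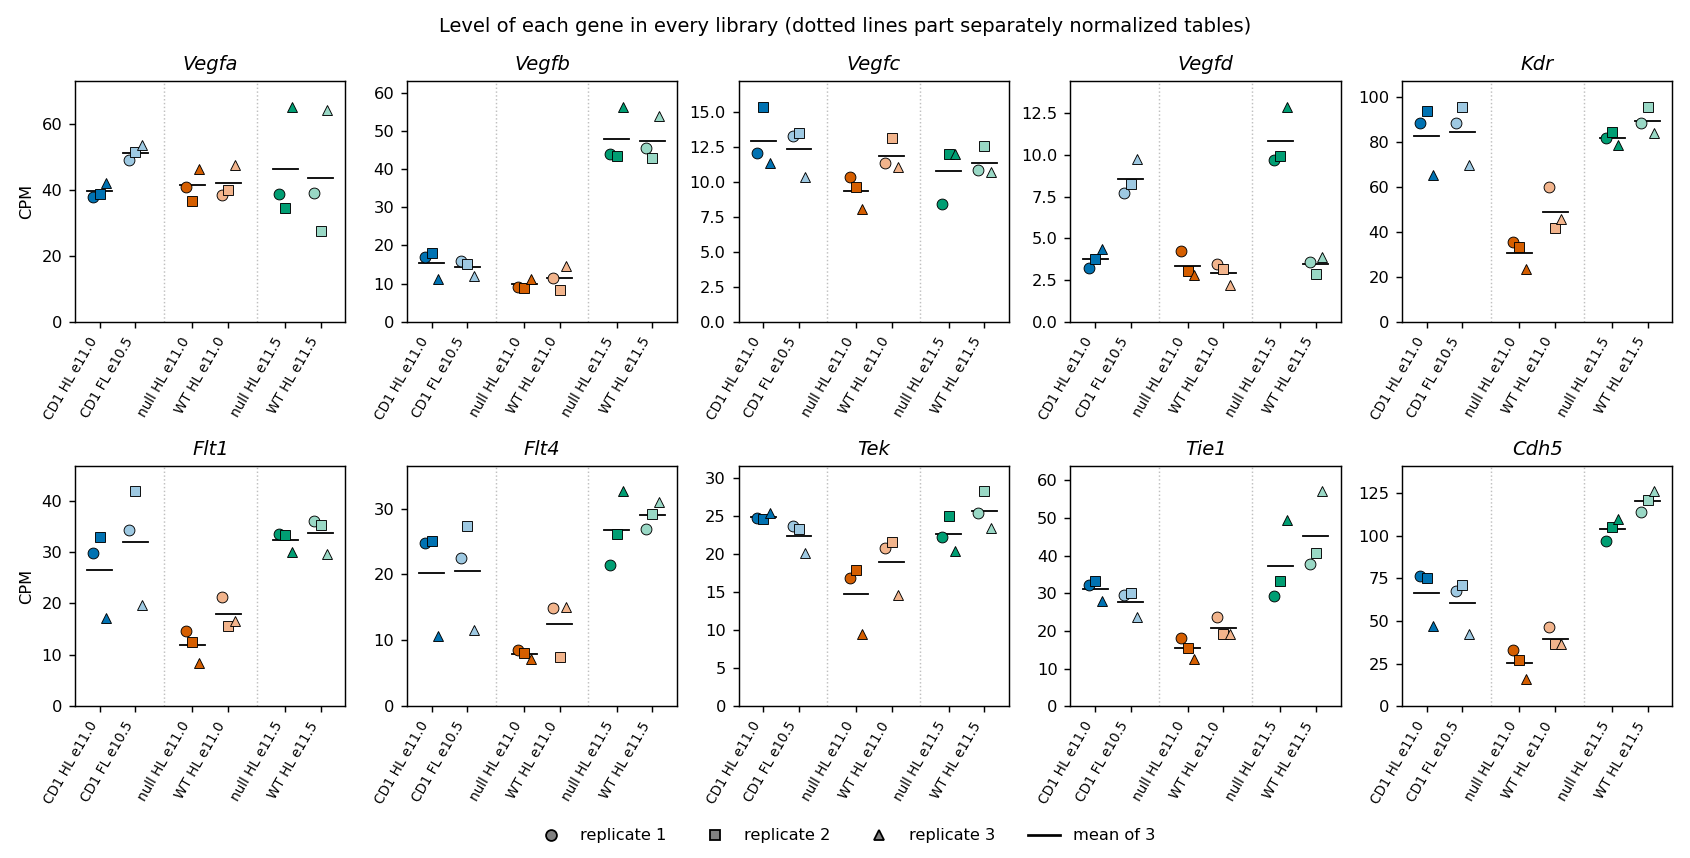
Level of the 10 genes in CPM (y axis, from 0) in the 18 libraries, by group (x axis; HL hindlimb, FL forelimb, WT wild type); symbols give the replicate number, lines the mean of 3, and dotted lines part the 3 tables. Vegfd stands at 9.69 to 12.9 CPM in null hindlimb at e11.5, against 2.86 to 3.88 CPM in wild type, and the means of the receptors and Cdh5 are lowest in null hindlimb at e11.0.

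Levels are compared between genes per length, as CPM per kilobase of the gene's joined exons. In CD1 hindlimb the highest level was that of Cdh5 at 15.8 ± 3.94 CPM per kilobase, followed by Vegfb at 9.55 ± 2.28, Vegfa at 9.21 ± 0.517 and Kdr at 9.15 ± 1.67 (SD, n = 3 each), 3 levels that did not differ beyond their spread. Tie1, Vegfc and Tek stood at 6.33, 5.29 and 5.29 CPM per kilobase there, and Flt4, Flt1 and Vegfd were the lowest at 2.45, 1.97 and 1.57. CD1 forelimb had Cdh5 at 14.4 ± 3.69 CPM per kilobase and Vegfa next at 12 ± 0.545, while Vegfd, at 3.57 ± 0.448, stood above Flt4 and Flt1 (2.49 ± 0.983 and 2.37 ± 0.83, SD, n = 3 each).
In null hindlimb at e11.0 Vegfa was first at 9.64 ± 1.13 CPM per kilobase, above Vegfb at 6.12 ± 0.813 and Cdh5 at 6.06 ± 2.08. In wild type hindlimb at e11.0 these genes stood together, Vegfa at 9.78 ± 1.13 and Cdh5 at 9.47 ± 1.41 (SD, n = 3 each). At e11.5 the highest means were those of Vegfb, with 29.9 ± 4.54 CPM per kilobase in null and 29.6 ± 3.57 in wild type hindlimb, and Cdh5, with 24.7 ± 1.51 in null and 28.6 ± 1.41 in wild type (SD, n = 3 each). In wild type these levels did not differ beyond their spread. The tables were normalized separately and the e11.5 libraries were made by another method, so levels set across tables also carry that difference: Vegfb had 42.9 to 56.3 CPM in the 6 libraries of e11.5 and 8.4 to 17.9 CPM in the other 12.

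Setting hindlimb against morphologically matched forelimb asks which genes differ by limb identity. The matched limbs differ in embryonic day as well, and limb and age cannot be told apart. In CD1 hindlimb 2 ligands were lower than in forelimb, Vegfd by about 1 log2 unit and Vegfa by 0.37, and the endothelial receptors and Cdh5 did not pass. Among all 13540 genes tested, 3.46% were called lower and 2.41% higher at an adjusted p under 0.05 (limma on log2(CPM + 1) with a run term that sets replicate 3 apart from replicates 1 and 2, Benjamini-Hochberg adjustment over all genes of the table). In CD1, where the run of replicate 3 is not labelled, that it was another run was assumed. The median log2 difference of the 10 genes was 0.01 and that of all genes was 0.01.

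Vegfd had 3.21, 3.78 and 4.36 CPM in CD1 hindlimb (replicates 1, 2 and 3), against 7.7, 8.28 and 9.79 CPM in CD1 forelimb. Each hindlimb library lay below each forelimb library, and the ratio of the means was 0.44. On the log2(CPM + 1) scale, which understates changes of low genes, the difference was -1.0 ± 0.09 (SE, n = 3 each; limma adjusted p = 0.00021). It was nearly equal in the 3 numbered pairs, at -1.05, -0.96 and -1.01.

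Vegfa had 37.7, 38.8 and 42 CPM in CD1 hindlimb, against 48.9, 51.4 and 53.5 CPM in CD1 forelimb. The groups did not overlap, and the limma difference was -0.37 ± 0.05 on the log2 scale (SE, n = 3 each; adjusted p = 0.00219), with -0.37, -0.40 and -0.34 in the numbered pairs. Both ligand calls held in each of the 6 fits that left out 1 library, with -1.06 to -0.95 for Vegfd and -0.39 to -0.35 for Vegfa. Without the run term limma called neither (adjusted p = 0.116 for Vegfd and 0.301 for Vegfa) and 13 genes in all.
The other ligands overlapped between the limbs. Vegfb had 16.9, 17.9 and 11.1 CPM in hindlimb, against 15.8, 15.1 and 12.1 CPM in forelimb (difference 0.07, 95% confidence interval -0.11 to 0.25). Vegfc had 12.1, 15.4 and 11.4 CPM in hindlimb, against 13.3, 13.5 and 10.4 CPM in forelimb (difference 0.05, interval -0.15 to 0.26).

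Of the receptors, Kdr had 88.7, 93.8 and 65.5 CPM in hindlimb, against 88.7, 95.7 and 69.8 CPM in forelimb, and the interval of its difference, -0.15 to 0.07, spans 0. Replicate 3 was the lowest of both groups, as it was for Flt1, Flt4, Tie1 and Cdh5 in this table. Cdh5 had 76.5, 75.3 and 47.2 CPM in hindlimb, against 67.4, 71 and 42.6 CPM in forelimb, with a difference of 0.14 ± 0.05 (SE, n = 3 each; limma adjusted p = 0.127). Tek had 24.8, 24.6 and 25.4 CPM in hindlimb, against 23.8, 23.4 and 20.2 CPM in forelimb, groups that did not overlap, with a difference of 0.15 ± 0.07 (SE, n = 3 each; limma adjusted p = 0.247).
Flt1 had 29.8, 32.9 and 17.1 CPM in hindlimb, against 34.3, 41.8 and 19.7 CPM in forelimb. It was lower in each numbered pair, by -0.19, -0.33 and -0.20, and did not pass (limma difference -0.24 ± 0.08, SE, n = 3 each; adjusted p = 0.114). It passed in the authors' deposited table at an adjusted p of 0.0455 and without forelimb replicate 1, where the difference was -0.31. Relative to Cdh5 in the same library, the log2 ratio of Flt1 was -1.36, -1.19 and -1.46 in hindlimb, against -0.97, -0.76 and -1.11 in forelimb, groups that did not overlap. Flt4 had 24.7, 25.1 and 10.7 CPM in hindlimb, against 22.5, 27.4 and 11.6 CPM in forelimb, and Tie1 32.1, 33.3 and 28 CPM in hindlimb, against 29.6, 30.2 and 23.6 CPM in forelimb. Both overlapped between the limbs, with differences of -0.03 and 0.16 (limma adjusted p = 0.845 and 0.133).

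The surrounding endothelial genes also gave few calls between the limbs. Of 29 endothelial surface and junction markers, 1 fell, Esm1, a marker of tip cells (-0.62, limma adjusted p = 0.00471), and the list's median was 0.06 against 0.01 for all genes. Without forelimb replicate 1 the count was 2. Of 17 endothelial transcription factors, 2 fell, the Ets factors Ets2 (-0.29) and Erg (-0.36), a count that was 1 without hindlimb replicate 1, hindlimb replicate 3 or forelimb replicate 3. Of 11 pathway partners 1 rose, the co-receptor gene Nrp2 (0.28), which was not called without hindlimb replicate 1 or 2. In the arterial Notch list of 12, the ligand Jag1 (0.48) and the Notch target Hey1 (0.36) rose and the ephrin Efnb2 (-0.32) fell.
Genes of a list for oxygen sensing and response, which does not hold Vegfa, also differed. Of 18 measured, 7 fell, among them Bnip3 (-0.61), a known hypoxia-induced gene, and 3 enzymes of glucose use (Ldha, Pgk1 and Pdk1). The oxygen sensor Egln2 rose (0.18), with a limma adjusted p of 0.106 with the replicate block. Of the other sensing genes, Hif1a, Epas1, Arnt, Egln1, Vhl and Hif1an differed by -0.05 to 0.10 and were not called. Egln3 (-0.46) was not called either. Of the 7, Ankrd37 (-0.42) did not pass with the block (adjusted p = 0.0507). The list's median was -0.25 against 0.01 for all genes. The count of 8 was 2 without hindlimb replicate 1 or replicate 2, 3 without forelimb replicate 2 and 12 without forelimb replicate 1.
Markers of other cell types differed between the CD1 limbs too, and their part in the ligand differences was not tested. Erythroid markers summed to 3914 to 5192 CPM in hindlimb, against 3828 to 3933 CPM in forelimb, and 4 of 12 rose, the globin genes Hbb-bt (1.5), Hbb-bs (1.47), Hba-a1 (0.45) and Hbb-y (0.40). Mesenchyme markers summed to 1557 to 1798 CPM in hindlimb, against 1608 to 2000 CPM in forelimb, with 1 of 12 higher (Hand2) and 4 lower (Msx2, Lhx9, Fgf10 and Twist1, the last with an adjusted p of 0.0622 with the replicate block). Of 8 mural markers Acta2 and Tagln rose and Rgs5 fell, and of 14 ectoderm markers 1 fell (Trp63; limma adjusted p = 0.0859 with the replicate block). Macrophage markers summed to 24.6 to 31 CPM in hindlimb, against 19.7 to 25.1 CPM in forelimb, and 7 of 8 had a positive difference that did not pass. With the replicate block Pf4 (0.48) did, at a limma adjusted p of 0.0201.

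Setting null against wild type hindlimb asks which genes depend on Pitx1. At e11.0, the receptors Kdr, Flt1, Tek and Tie1 and the junction gene Cdh5 were lower in Pitx1 null hindlimb, by 0.37 to 0.68 log2 units, and none of the 4 ligands passed. With the replicate number as a block, the ligand Vegfc and the receptor Flt4 were called lower too. In the main fit, which has no block, 5 of the 10 genes fell, where 8.41% of all 14027 genes were called lower and 4.73% higher, and the median difference of the 10 was -0.39 against -0.07 for all genes. The direction of calls over all genes depended on scaling: 664 rose and 1179 fell as deposited, 1064 rose and 524 fell under trimmed-mean, 1326 and 403 under median-ratio and 984 and 567 under upper-quartile scaling, and 1707 rose and 1188 fell in the authors' deposited table. These calls rest on few libraries. Without null replicate 3, wild type replicate 1 or wild type replicate 3 the fit called 0 of the 10 genes, without null replicate 2 it called 1, without null replicate 1 it called 4 and without wild type replicate 2 it called 7. Without the run term it called 0 of the 10, and 5 genes in all. The fits without null or wild type replicate 3 both rest on replicates 1 and 2, so they are not separate checks.

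**Figure D2:**
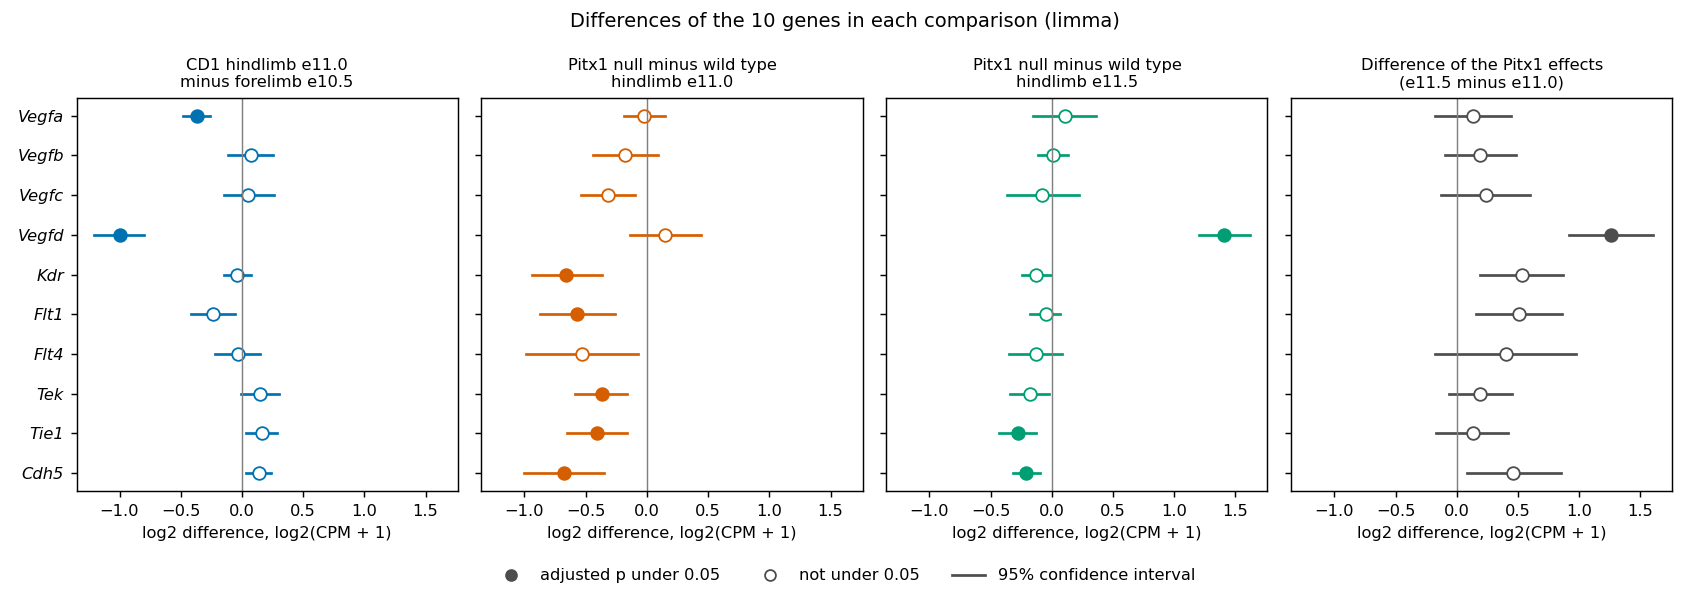
Log2 difference on the log2(CPM + 1) scale (x axis) of the 10 genes (rows) in the 3 comparisons and, at the right, the difference of the Pitx1 effects between the stages; points are limma estimates, bars 95% confidence intervals and filled points have an adjusted p under 0.05. Kdr, Flt1, Tek, Tie1 and Cdh5 lie at -0.66, -0.57, -0.37, -0.41 and -0.68 at e11.0, and Vegfd at 1.41 at e11.5.

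Kdr, the main Vegfa receptor, had 35.5, 33.3 and 23.7 CPM in null hindlimb, against 59.9, 41.8 and 45.6 CPM in wild type. The null libraries lay below the wild type ones, and the difference was -0.66 ± 0.13 (SE, n = 3 each; limma adjusted p = 0.0147). Cdh5 had 33.1, 27.3 and 15.9 CPM in null hindlimb, against 46.6, 36.4 and 36.3 CPM in wild type, again without overlap (difference -0.68 ± 0.15, SE, n = 3 each; limma adjusted p = 0.0214). Null replicate 3 was the lowest library for both genes.
Flt1, the decoy receptor, had 14.7, 12.6 and 8.52 CPM in null hindlimb, against 21.3, 15.7 and 16.6 CPM in wild type (difference -0.57 ± 0.14, SE, n = 3 each; limma adjusted p = 0.0286). Its groups did not overlap either. Tie1 had 18.2, 15.6 and 12.5 CPM in null hindlimb, against 23.8, 19.1 and 19.2 CPM in wild type (-0.41 ± 0.11, SE, n = 3 each; limma adjusted p = 0.0399), also without overlap. Tek had 16.9, 18 and 9.49 CPM in null hindlimb, against 20.8, 21.6 and 14.7 CPM in wild type, groups that overlap (-0.37 ± 0.10, SE, n = 3 each; limma adjusted p = 0.0353).
Kdr, Flt1 and Cdh5 also passed under trimmed-mean, median-ratio and upper-quartile scaling, and Tek and Tie1 did not.

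Flt4, the receptor of Vegfc and Vegfd, had 8.6, 8.04 and 7.16 CPM in null hindlimb, against 14.9, 7.42 and 15 CPM in wild type. Wild type replicate 2 was low, so the groups overlap, and the difference of -0.53 ± 0.21 did not pass (SE, n = 3 each; limma adjusted p = 0.0991). With the replicate number as a block it did (limma adjusted p = 0.0388), as in the authors' deposited table (adjusted p = 0.00177) and without wild type replicate 2. Vegfc had 10.4, 9.66 and 8.11 CPM in null hindlimb, against 11.4, 13.2 and 11.1 CPM in wild type, with no overlap. Its difference of -0.32 ± 0.10 had a limma adjusted p of 0.0592 (SE, n = 3 each), and 0.0424 with the replicate block.
The remaining ligands overlapped between genotypes at e11.0. Vegfa had 40.9, 36.7 and 46.3 CPM in null hindlimb, against 38.4, 40 and 47.4 CPM in wild type (difference -0.02, interval -0.19 to 0.15). Vegfb had 9.24, 8.92 and 11.3 CPM in null hindlimb, against 11.4, 8.4 and 14.6 CPM in wild type (difference -0.18, interval -0.44 to 0.09). Vegfd had 4.25, 3.06 and 2.79 CPM in null hindlimb, against 3.44, 3.16 and 2.19 CPM in wild type (difference 0.15, interval -0.14 to 0.44).

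**Figure D3:**
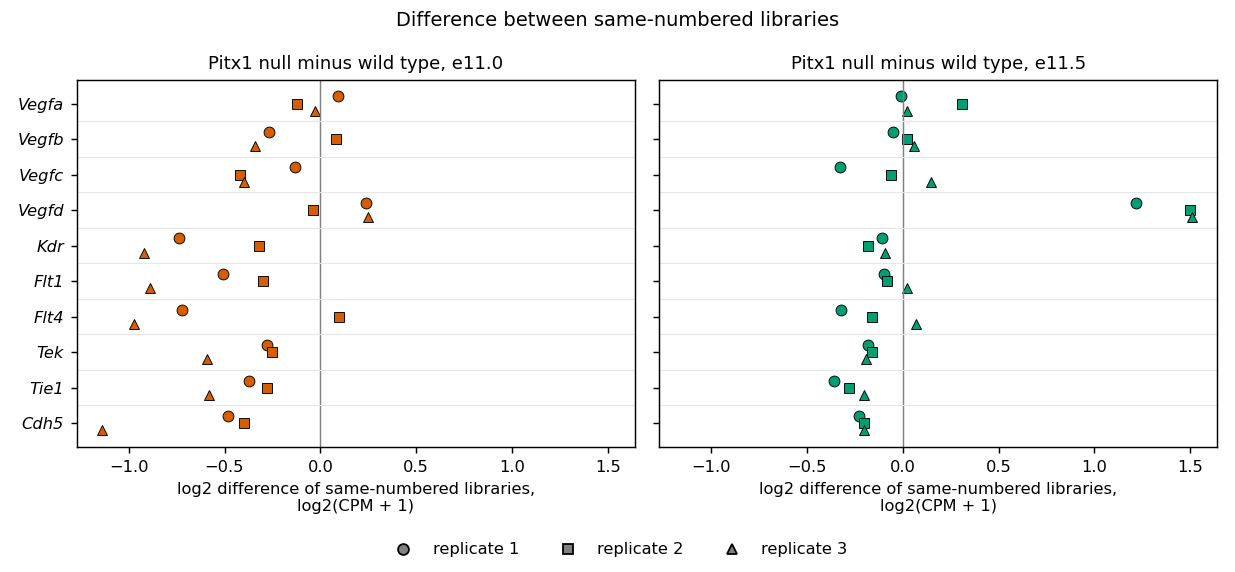
Difference between the null and wild type libraries that carry the same replicate number (x axis, log2(CPM + 1) scale) for the 10 genes (rows) at e11.0 and e11.5; symbols give the replicate number. At e11.0 Cdh5 differs by -1.14 in replicate 3, against -0.48 and -0.40 in replicates 1 and 2, and at e11.5 Vegfd lies at 1.22, 1.5 and 1.51.

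The size of the e11.0 difference varied between the numbered pairs, and run and replicate cannot be told apart. For Cdh5 it was -0.48 and -0.40 in replicates 1 and 2, which share a run, and -1.14 in replicate 3, and for Kdr it was -0.74, -0.32 and -0.92. Flt1 differed by -0.51 and -0.30 in replicates 1 and 2 and by -0.89 in replicate 3. All 5 called genes were lower in null hindlimb in each of the 3 pairs. For Kdr, Flt1, Tie1 and Cdh5 any pairing would give this, since their groups do not overlap, so it adds no support to the calls. Replicates 1 and 2 alone gave differences of -0.53 for Kdr, -0.40 for Flt1, -0.27 for Tek, -0.32 for Tie1 and -0.44 for Cdh5, with 0 of the 10 genes called by limma.
Relative to Cdh5 in the same library, Kdr, Flt1 and Flt4 were similar between genotypes, while Tek and Tie1 were higher in null. These ratios were not tested. The log2 ratio of Kdr to Cdh5 averaged 0.32 ± 0.24 in null and 0.30 ± 0.09 in wild type hindlimb (SD, n = 3 each), and that of Flt1 averaged -1.07 ± 0.14 in null and -1.16 ± 0.05 in wild type. The ratio of Flt4 averaged -1.62 ± 0.41 in null and -1.74 ± 0.52 in wild type (SD, n = 3 each). That of Tek was -0.97, -0.60 and -0.75 in null, against -1.17, -0.76 and -1.30 in wild type, higher in each pair with overlapping groups. For Tie1 the 3 null ratios were -0.86, -0.81 and -0.35, each above the wild type ratios of -0.97, -0.93 and -0.92. The ratio of Vegfd averaged -2.88 ± 0.33 in null and -3.78 ± 0.26 in wild type, and that of Vegfa 0.76 ± 0.68 in null and 0.08 ± 0.34 in wild type.

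**Figure D4:**
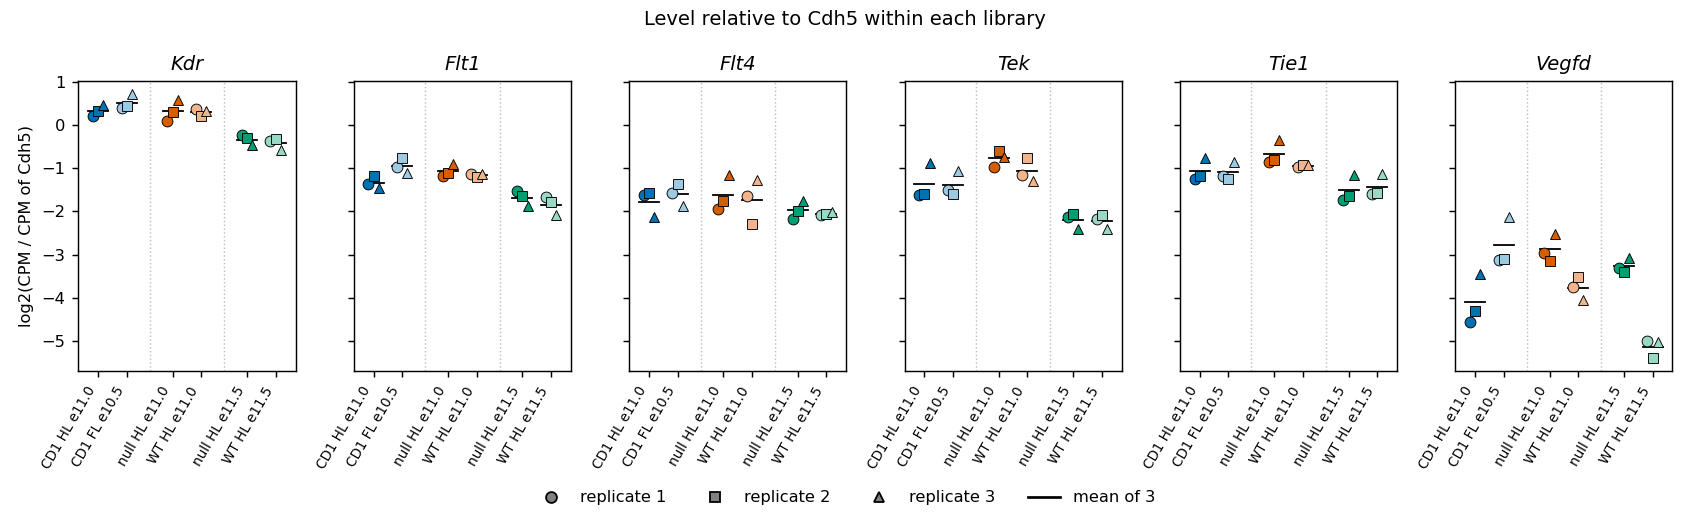
Log2 ratio of 5 receptor genes and Vegfd to Cdh5 within each library (y axis), by group (x axis); symbols give the replicate number, lines the mean of 3, and dotted lines part the tables. Kdr averages 0.32 in null and 0.30 in wild type hindlimb at e11.0, whereas Vegfd averages -3.27 in null and -5.14 in wild type hindlimb at e11.5.

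Many other endothelial genes were lower in the same null libraries, while 3 of 29 surface and junction markers had a positive difference that did not pass. Of 29 endothelial surface and junction markers, 15 fell, among them the receptor-associated protein gene Ramp2 (-0.59), Cd93 (-0.61), the matrix gene Mmrn2 (-0.57) and the guidance receptor Robo4 (-0.58), and the list's median was -0.42 against -0.07 for all genes. Its summed level was 279 to 403 CPM in null hindlimb, against 392 to 536 CPM in wild type. The count of 15 was 0 without null replicate 3, wild type replicate 1 or wild type replicate 3, 1 without null replicate 2 and 9 without null replicate 1, and 8 to 9 under the 3 scalings.
Of 16 endothelial transcription factors, 6 had a positive difference that did not pass and 5 fell: Ets1 (-0.64), Sox7 (-0.59), Fli1 (-0.30), Elk3 (-0.47) and Sox18 (-0.52). That count was 0 without the same 3 libraries, 1 without null replicate 2 and 8 without wild type replicate 2, and 2 under median-ratio scaling.
In the arterial Notch list of 12, 4 fell: the Notch ligand Dll4 (-0.67), which Vegf signalling is known to induce, its target Hey1 (-0.44), and the ephrin pair Efnb2 (-0.51) and Ephb4 (-0.38). The count was 0 without the same 3 libraries, 2 without null replicate 2 and 8 without wild type replicate 2, and 2 under trimmed-mean or median-ratio scaling.

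Among 12 partners of the Vegf and Tie pathways, the Vegf co-receptor gene Nrp1 fell (-0.75 ± 0.09; limma adjusted p = 0.00128) and so did the signalling enzyme gene Plcg1 (-0.40). Angpt1, which encodes the activating ligand of Tek, rose (0.69 ± 0.09; limma adjusted p = 0.00298). With the replicate block 1 rose and 4 fell. The count of 3 was 7 without wild type replicate 2, and 2 without null replicate 2, null replicate 3, wild type replicate 1 or wild type replicate 3. Of 9 genes in the list for mural cells, which wrap vessels, 5 fell by -0.39 to -0.57: Mcam, Abcc9, Cspg4, Pdgfrb and Pdgfb, the last a ligand known to be made by endothelial cells, and Rgs5 rose (0.40). Under the 3 scalings, and without null replicate 2, null replicate 3, wild type replicate 1 or wild type replicate 3, the fit called none of these 5, and Rgs5 was also not called without any of these 4 libraries or null replicate 1. Of 18 genes of oxygen sensing and response 1 fell, Arnt (-0.31). It was not called under the 3 scalings or in 5 of the 6 fits without 1 library. Without wild type replicate 2 the count was 5.

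Markers of several other cell types also differed at e11.0, some higher and some lower in null hindlimb, and their part in the result was not tested. For scale, 4.73% of all genes were called higher and 8.41% lower. Surface ectoderm markers summed to 572 to 1281 CPM in null hindlimb, against 438 to 1060 CPM in wild type, and 6 of 14 rose. Erythroid markers, of red blood cells, summed to 6235 to 17989 CPM in null hindlimb, against 4942 to 11408 CPM in wild type, and 1 of 13 rose (Hbb-bs). For both lists replicate 3, of another run, gave the highest sum in each genotype. Replicates 1 and 2 had 599 and 572 CPM of ectoderm markers in null, against 438 and 525 CPM in wild type. For erythroid markers they had 6235 and 6337 CPM in null, against 4942 and 7510 CPM in wild type. Mesenchyme markers summed to 828 to 1218 CPM in null hindlimb, against 1161 to 1612 CPM in wild type, and 6 of 12 fell. Muscle precursor markers summed to 112 to 121 CPM in null hindlimb, against 145 to 160 CPM in wild type, and 5 of 6 fell. Macrophage markers summed to 26.9 to 32.8 CPM in null hindlimb, against 24.9 to 30 CPM in wild type, and 1 of 9 rose (Pf4). No measured gene of these lists was at 0 in any library. Without wild type replicate 2, 13 ectoderm, 10 erythroid, 8 mesenchyme and 6 muscle precursor markers were called. Without any other single library the ectoderm count was 1 to 2, the mesenchyme count 3 to 6, the muscle precursor count 1 to 4, and 1 erythroid and 1 macrophage marker were called without null replicate 1 but 0 and 0 by limma without null replicate 2 or 3 or wild type replicate 1 or 3.

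At e11.5, Vegfd was 3.15-fold higher in Pitx1 null hindlimb, and Tie1 and Cdh5 were slightly lower. Of the 10 genes 1 rose and 2 fell, where 2.83% of all 13478 genes were called higher and 7.96% lower, and their median difference was -0.10 against -0.02 for all genes. Over all genes 382 rose and 1073 fell as deposited, against 691 and 917 under trimmed-mean and 743 and 919 under median-ratio scaling.
Vegfd had 9.69, 9.95 and 12.9 CPM in null hindlimb, against 3.6, 2.86 and 3.88 CPM in wild type. The lowest null library stood well above the highest wild type library. The means were 10.8 ± 1.79 CPM in null and 3.45 ± 0.524 CPM in wild type (SD, n = 3 each), a ratio of 3.15. The limma difference was 1.41 ± 0.09 on the log2 scale (SE, n = 3 each; adjusted p = 0.000164), with 1.22, 1.5 and 1.51 in the numbered pairs. It passed in each of the 6 fits that left out 1 library, at 1.35 to 1.5, and with replicates 1 and 2 alone it was 1.36. Without the run term its limma adjusted p was 0.0541. The fits without replicate 3 of either genotype both rest on replicates 1 and 2, so they are not separate checks.

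Tie1 had 29.2, 33.3 and 49.5 CPM in null hindlimb, against 37.7, 40.8 and 57.1 CPM in wild type. Replicate 3 was high in both genotypes, so the groups overlap, but each pair was lower in null, by -0.36, -0.28 and -0.20 (limma difference -0.28 ± 0.07, SE, n = 3 each; adjusted p = 0.0329). Cdh5 had 97.1, 105 and 110 CPM in null hindlimb, against 114, 121 and 126.1 CPM in wild type, without overlap (difference -0.21 ± 0.05, SE, n = 3 each; limma adjusted p = 0.0295). The numbered pairs of Cdh5 differed by -0.23, -0.20 and -0.20. Neither gene was called without null replicate 2 or 3 or without wild type replicate 1, 2 or 3; over the 6 fits that left out 1 library the differences were -0.32 to -0.22 for Tie1 and -0.24 to -0.18 for Cdh5. Neither was called under median-ratio scaling, and Cdh5 was not under trimmed-mean scaling.
The other receptors were close between genotypes. Kdr had 82.1, 84.5 and 79 CPM in null hindlimb, against 88.5, 95.8 and 84.3 CPM in wild type (difference -0.13, interval -0.24 to -0.01; limma adjusted p = 0.131). Flt1 had 33.5, 33.3 and 30.1 CPM in null hindlimb, against 36, 35.2 and 29.7 CPM in wild type (difference -0.05, interval -0.18 to 0.07). Tek had 22.3, 25.1 and 20.5 CPM in null hindlimb, against 25.4, 28.3 and 23.5 CPM in wild type. It was lower in each pair, by -0.18, -0.16 and -0.19, with overlapping groups (limma adjusted p = 0.135), and Flt4, with 21.4 to 32.6 CPM in null and 26.9 to 31 CPM in wild type, differed by -0.13 ± 0.09 (SE, n = 3 each; limma adjusted p = 0.365).
Among the ligands, Vegfa had 38.8, 34.6 and 65.1 CPM in null hindlimb, against 39.1, 27.6 and 64.2 CPM in wild type, with replicate 3 highest in both (difference 0.11, interval -0.15 to 0.36). Vegfb had 43.9, 43.5 and 56.3 CPM in null hindlimb, against 45.6, 42.9 and 53.9 CPM in wild type (difference 0.01, interval -0.11 to 0.13). Vegfc had 8.47, 12 and 12 CPM in null hindlimb, against 10.9, 12.6 and 10.7 CPM in wild type (difference -0.08, interval -0.37 to 0.22). The groups of all 3 of these ligands overlapped.

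Several partners of these genes also differed at e11.5, where 7.96% of all genes were called lower and 2.83% higher. The co-receptor gene Nrp2, known for binding Vegfc and Vegfd, rose (0.39 ± 0.06; limma adjusted p = 0.00795), while Nrp1 (-0.55), the ligand Pgf (-0.79) and the endothelial phosphatase Ptprb (-0.34) fell, 4 of 12 in all. Of 29 endothelial surface and junction markers 2 fell, Clec14a (-0.41) and Mmrn2 (-0.28), a share near that of all genes, and with the replicate block 6 fell. The count of 2 was 0 without null replicate 2, null replicate 3 or wild type replicate 3, and 1 without any other single library. Of 17 endothelial transcription factors 2 fell, Mef2c (-0.39) and Fli1 (-0.27; adjusted p = 0.055 with the replicate block), 0 without null replicate 2 or 3 or wild type replicate 1 or 3 and 1 without wild type replicate 2. In the arterial Notch list 4 of 12 fell, Dll1 (-0.52), Efnb2 (-0.25), Jag1 (-0.40) and Notch4 (-0.22), of which Jag1 and Notch4 did not pass with the block (adjusted p = 0.0613 and 0.0514). That count was 0 without replicate 3 of either genotype and 1 without replicate 2 of either genotype.
The remaining lists at e11.5 are given as counts. Of 9 mural markers 2 fell (Acta2 and Cspg4). Of 18 genes of oxygen sensing and response 3 were called, Ldha higher and Epas1 and Egln3 lower. Of 12 mesenchyme markers 5 rose (Fgf10, Prrx2, Lhx2, Msx1 and Msx2) and 2 fell (Tbx15 and Tbx18). Of 14 ectoderm markers 2 rose (Wnt7a and Cldn6). All 9 of 9 muscle precursor markers fell, and 3 of 10 macrophage markers fell (Pf4, Csf1r and C1qa). Leaving out 1 library changed these counts to 1 to 3 for mural cells, 0 to 6 for oxygen sensing, 6 to 10 for mesenchyme, 1 to 4 for ectoderm, 5 to 9 for muscle precursors and 0 to 3 for macrophages. Those of mural cells and macrophages were lowest without replicate 3 of either genotype, and that of oxygen sensing was 0 without replicate 2 or 3 of either genotype. Under trimmed-mean or median-ratio scaling 6 ectoderm markers were called. Surface ectoderm markers summed to 456 to 544 CPM in null hindlimb, against 391 to 448 CPM in wild type, and macrophage markers to 33.7 to 41.7 CPM in null, against 43 to 51.4 CPM in wild type. Erythroid markers summed to 2695 to 3136 CPM in null hindlimb, against 2965 to 3532 CPM in wild type. Their part in the Vegfd difference was not tested.

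**Figure D5:**
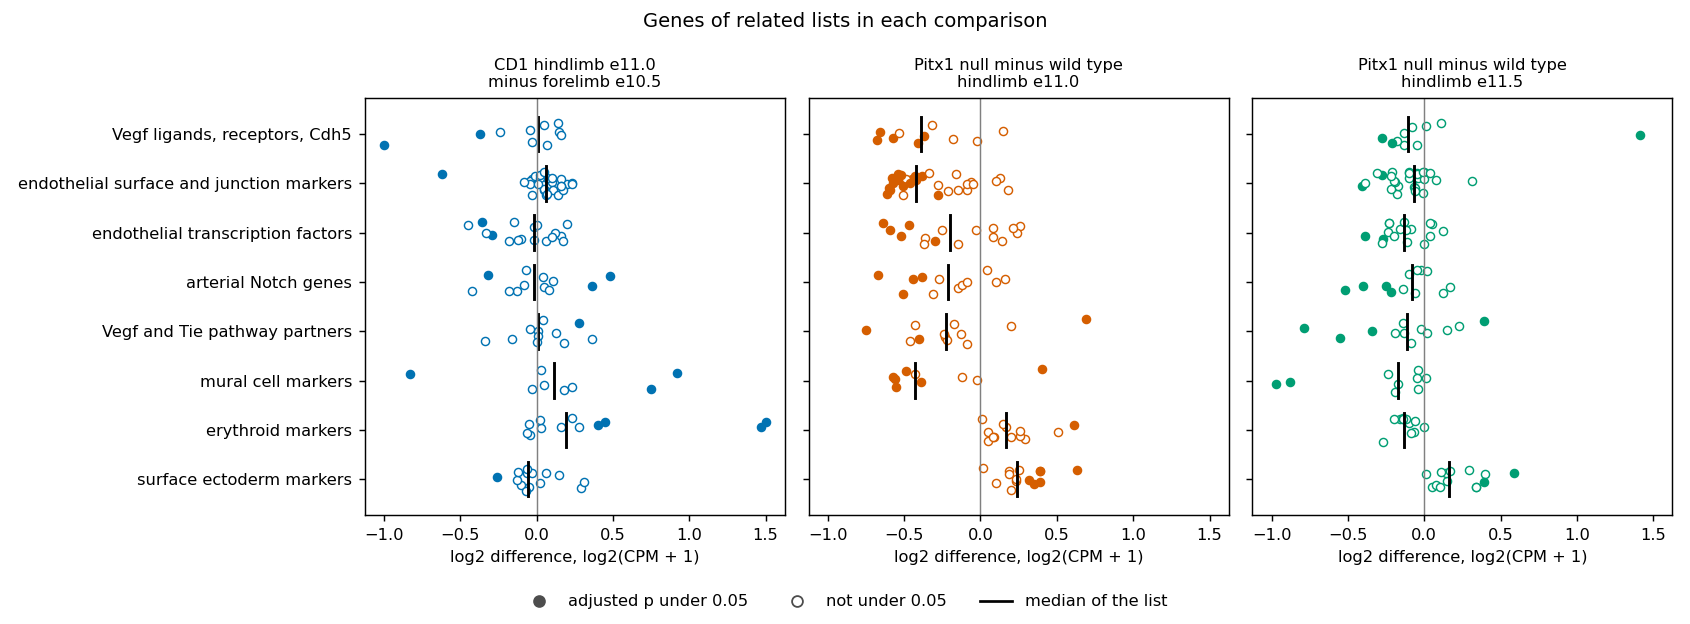
Log2 difference on the log2(CPM + 1) scale (x axis) of each measured gene of 8 lists (rows) in the 3 comparisons; filled points have an adjusted p under 0.05 (limma) and the black line is the median of the list. The median of the endothelial surface and junction markers is 0.06 between CD1 limbs, -0.42 in null hindlimb at e11.0 and -0.07 at e11.5.

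The null-minus-wild-type difference of Vegfd itself differed between the stages. It was 1.26 ± 0.16 log2 units larger at e11.5 than at e11.0 (SE, 12 libraries; limma interaction term, adjusted p = 0.00478, interval 0.92 to 1.6). It was the 1 gene of the 10 that passed, where 0.17% of 12935 genes were called higher and 0.193% lower. In the 12 fits that left out 1 library the difference was 1.14 to 1.35 and passed in each, and without the run term it did not (limma adjusted p = 0.756). At each stage the fits without replicate 3 of either genotype are nearly the same fit, so these are not 12 separate checks. In wild type hindlimb Vegfd averaged 3.45 ± 0.524 CPM at e11.5 and 2.93 ± 0.657 CPM at e11.0 (SD, n = 3 each), while in null hindlimb it averaged 10.8 ± 1.79 CPM at e11.5 and 3.36 ± 0.779 CPM at e11.0. The stage cannot be told apart from the library method, which also changed between e11.0 and e11.5.
For the receptors and Cdh5, the difference between stages did not pass. It was 0.53 ± 0.16 for Kdr (limma adjusted p = 0.134), 0.51 ± 0.16 for Flt1 (0.14) and 0.46 ± 0.18 for Cdh5 (0.183), with intervals of 0.19 to 0.87, 0.16 to 0.86 and 0.08 to 0.85. For Tek and Tie1 it was 0.19 ± 0.12 and 0.13 ± 0.14 (limma adjusted p = 0.351 and 0.606). Without wild type replicate 2 of e11.0, Kdr (0.71), Flt1 (0.68), Flt4 (0.72), Cdh5 (0.63) and Vegfb (0.33) passed too, among 2567 genes called in all.

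Across the 18 libraries, after each table's mean and run difference were removed, Pearson's r with Cdh5 was higher for each of the 5 receptors than for each of the 4 ligands, which was not so for Spearman's rho. These correlations are descriptions: the points share tables, runs and the group differences given above. Pearson's r with Cdh5 was 0.94 for Kdr, 0.93 for Tie1, 0.85 for Flt4, 0.85 for Tek and 0.82 for Flt1, against 0.71 for Vegfb, 0.60 for Vegfc, -0.16 for Vegfa and -0.35 for Vegfd. Spearman's rho was 0.96 for Tie1, 0.87 for Tek, 0.82 for Kdr, 0.67 for Flt4 and 0.50 for Flt1, against 0.55 for Vegfc, 0.46 for Vegfb, -0.34 for Vegfa and -0.61 for Vegfd. Of 12675 genes with a mean of at least 1 CPM, the 5 nearest to Cdh5 were Adgrf5 (0.98), Yap1, Pecam1, Cd93 and Cachd1 (0.97 each). Pecam1 and Cd93 are in the endothelial surface list. By Pearson's r with Cdh5, Kdr ranked 35, Tie1 60, Flt4 581, Tek 585, Flt1 880 and Vegfb 2142 among the 12675, so high values were common. The 5 nearest to Vegfa were Adamts19 (0.93), Kcne3 (0.90), Sema4d (0.87), Tbc1d31 (0.87) and Wdr76 (0.86), and Vegfd had r = 0.65 with Vegfa.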

How the data were processed

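Gene expression was measured by RNA sequencing of 18 limb bud libraries. The authors deposited 3 tables of CPM (counts scaled to library size) with their own log2 fold changes, log2 CPM, p-values, adjusted p-values and a likelihood ratio score that was not used, made with STAR, featureCounts and edgeR on mm10/GRCm38, per the submitters' processing notes; versions are not given in the sources used here. Every gene in a table was above 0.5 CPM in 3 or more of its libraries. Differences were fitted in R 4.3.3 with limma 3.58.1 (trend) on log2(CPM + 1) with group and run terms (replicate 3 against replicates 1 and 2; assumed another run in CD1), 3 residual degrees of freedom (6 for the stage interaction), and Benjamini-Hochberg adjustment over each table. On simulated data with 200 genes changed by 1 log2 unit, the procedure recovered 100% in each comparison. The changed genes all had a mean above 5 CPM, and the simulated spread was set, not taken from the data. Of the genes called there, 4.31% (CD1), 1.48% (e11.0) and 5.21% (e11.5) were false. Smaller changes, such as most of those reported here, and changes of lower genes were not simulated. Same-numbered libraries deviated together (correlations 0.64 to 0.94 over the 9 pairs, each over the 0.1 set for treating them as paired). Run differences were left in, so a shared run alone can raise these correlations. Crossed replicates 1 and 2 of opposite groups, which share a run, correlated at 0.41 to 0.85. In CD1 the same-numbered libraries of that run (0.69 and 0.80) were no closer than the crossed ones (0.85 and 0.75). They were closer at e11.0 (0.66 and 0.64 against 0.41 and 0.53) and e11.5 (0.73 and 0.83 against 0.63 and 0.63). For replicate 3, number and run cannot be told apart. Although each pair was over the limit set for pairing, the main fit has no replicate block, which was run as an alternative. The 10 genes and 11 related gene lists were chosen with earlier results of these data known, and of each list up to 4 called genes with the smallest adjusted p are named, with the members of a count of 5 or fewer, except in the muscle precursor list. The CD1 result of the muscle precursor list is not reported here. Gene lengths came from GENCODE M21, promoters from RefSeq. Alternatives were scaling, pseudocount (0.1), low-value filter, run term, replicate block and left-out libraries.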

Additional observations from a re-analysis of the deposited data

Results flagged for a closer look

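Vegfd had a Pitx1 null minus wild type difference that differed between the stages: it was 1.26 log2 units larger at e11.5 than at e11.0 (limma interaction term, adjusted p = 0.00478). It had 9.69, 9.95 and 12.9 CPM in null hindlimb, against 3.6, 2.86 and 3.88 CPM in wild type at e11.5, and 4.25, 3.06 and 2.79 CPM in null, against 3.44, 3.16 and 2.19 CPM in wild type at e11.0. In CD1 embryos it was lower in hindlimb, with 3.21 to 4.36 CPM, against 7.7 to 9.79 CPM in forelimb. The library method also changed between e11.0 and e11.5, and its part was not tested.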

How the results depend on the processing

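Limma called 795, 1843 and 1455 genes between CD1 limbs and in null against wild type hindlimb at e11.0 and e11.5, and 2, 5, 3 and 1 of the 10 genes there and in the stage difference. Without the run term it called 13, 5 and 11 genes and 0 of the 10 in each of the 4. With replicates 1 and 2 alone it called 471, 199 and 483 genes, with 0 of the 10 at e11.0 and 1 at e11.5. The authors' deposited table calls 1689, 2895 and 2644. Under trimmed-mean, median-ratio and upper-quartile scaling 3, 3 and 3 of the 10 were called at e11.0, and median-ratio scaling left 1 at e11.5. With the replicate block 3442 genes were called at e11.0; the block added Vegfc and Flt4 there and ended no call among the 10. Leaving out 1 library gave 394 to 1191, 116 to 5273 and 433 to 2627 genes, and 2 to 3, 0 to 7 and 1 to 3 of the 10, with 1 to 6 in the stage difference. Of the log2 differences of the 10 genes under these alternatives, 621 kept their side of the threshold (some uncalled ones near 0 changed sign), 57 lost the call and 12 gained one, and the cause was not tested. Count tests on reads recovered from the CPM steps, planned as alternatives, were not run, since a check on low values recovered whole reads in some libraries only. Vegfd, with as few as 55 implied reads, is limited most by depth.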
